A study of Mus musculus with 16 samples.

Results

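The genes described here encode the SNARE proteins and their partners, which fuse secretory vesicles with the plasma membrane. The list of 35 genes was set by name, and all 35 were measured among 18193 genes, each by its brightest probe set over the 16 arrays. The arrays came from pancreatic islets of 8 mutant and 8 control mice, 1 array per islet preparation. Mutant mice were RIPcreER; Insm1flox/lacZ, with a floxed and a lacZ allele of Insm1, which encodes a zinc finger factor of endocrine cells. Control mice were RIPcreER; Insm1flox/+, with a floxed and a wild-type allele. All 16 animals had a mixed C57BL/6, 129/ola and CBA/J background, carried the tamoxifen-inducible recombinase, and received a tamoxifen pellet of 25 mg with release over 21 days at 4 to 5 weeks of age. Islets were taken at 8 to 12 weeks. The recombinase is driven by an insulin promoter, so deletion is directed to beta cells, and the floxed allele could be deleted in the controls too. Where deletion occurred, the comparison therefore sets beta cells with no working allele against beta cells with 1 wild-type allele. The other islet cells of the mutants also carried the lacZ allele in place of a wild-type one.

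In a beta cell, insulin granules carry a VAMP protein, and the plasma membrane carries a syntaxin and a SNAP-25-type protein. The 3 partners zip into a bundle that pulls the membranes together. Munc18 proteins hold and guide the syntaxin, Munc13 and CAPS proteins prime the granule, synaptotagmins sense calcium, complexins clamp and then aid fusion, and NSF with alpha-SNAP takes the spent bundle apart. Tomosyns bind syntaxin and SNAP-25 in place of VAMP and restrain release.

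Values are log2 signals of probe sets, and differences are mutant minus control on that scale, with 8 arrays per group. A gene was called when its adjusted p, from limma with Benjamini-Hochberg adjustment over all genes, was under 0.05. The number of arrays limits the precision. Levels of different genes are not compared, since each probe set has its own brightness. In whole islets, fewer cells of a type and less RNA per cell cannot be told apart.

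Insm1 itself ran from 10.71 to 11.30 (median 11.08) in mutants and from 10.94 to 11.60 (median 11.24) in controls, a difference of −0.25 ± 0.11 (SE, adjusted p = 0.182). Where its probes lie relative to the deleted part is not known here, so this level checks nothing. Marker signals of several cell types differed too. The mean of 10 beta-cell markers ran from 11.45 to 11.84 in mutants, against 12.23 to 12.53 in controls, and 8 of the 10 were called lower. The means of 6 alpha-cell and 7 delta-cell or PP-cell markers were higher by 0.52 and 0.31, in 8 of 8 pairs of arrays with the same replicate number. The mean of 22 acinar markers, genes of digestive enzyme cells, ran from 7.75 to 12.72 in mutants and from 10.60 to 13.32 in controls, and was the lower one for the mutant in 8 of 8 pairs, with a negative difference for all 22 markers. The mean of 23 immune-cell markers ran from 7.30 to 9.57 in mutants and from 7.23 to 8.57 in controls, with a positive difference for 22 of 23 markers, 1 of them called, and a higher mean in 5 of 8 pairs. The mean of 11 stroma markers was higher by 0.21, in 7 of 8 pairs. Of the 11, 2 were called higher and 1 lower (27.3% called, against 8.76% of all genes). The highest immune-marker means were in replicates 1, 3 and 2 among mutants and in replicate 1 among controls. Of the markers, 2 acinar genes, 5 immune genes, 1 delta-cell or PP-cell gene and 1 stroma gene averaged below the lowest array median. The islet hormone genes Ins2, Sst and Ppy averaged 15.37, 14.31 and 15.02 in mutants and 15.36, 14.17 and 14.81 in controls. Ins2 reached 15.39 in mutants, the highest value of any probe set, so its signal may be at the top of the scale and hide a difference.

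Of the 35 fusion genes, 8 were called, 6 lower and 2 higher in the mutant. Sv2a, Snap23, Vamp3, Pclo, Stxbp5 and Stx3 fell, and Syt17 and Syt9 rose. The called share was 22.9% of the 35 genes, against 8.76% of all genes. The background was 4.66% for lower and 4.1% for higher. The median difference over the 35 was −0.05, against −0.01 over all genes, with 14 genes above 0 and 21 below, and no test of the list was made. With the replicate number as a block, 10 of 35 were called (28.6%), against 17.6% of all genes, the added 2 being Syt7 and Snap25, both higher. The mutant and control values overlapped for all 35, while they did not overlap for 2.29% of all genes.

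**Figure D1:**
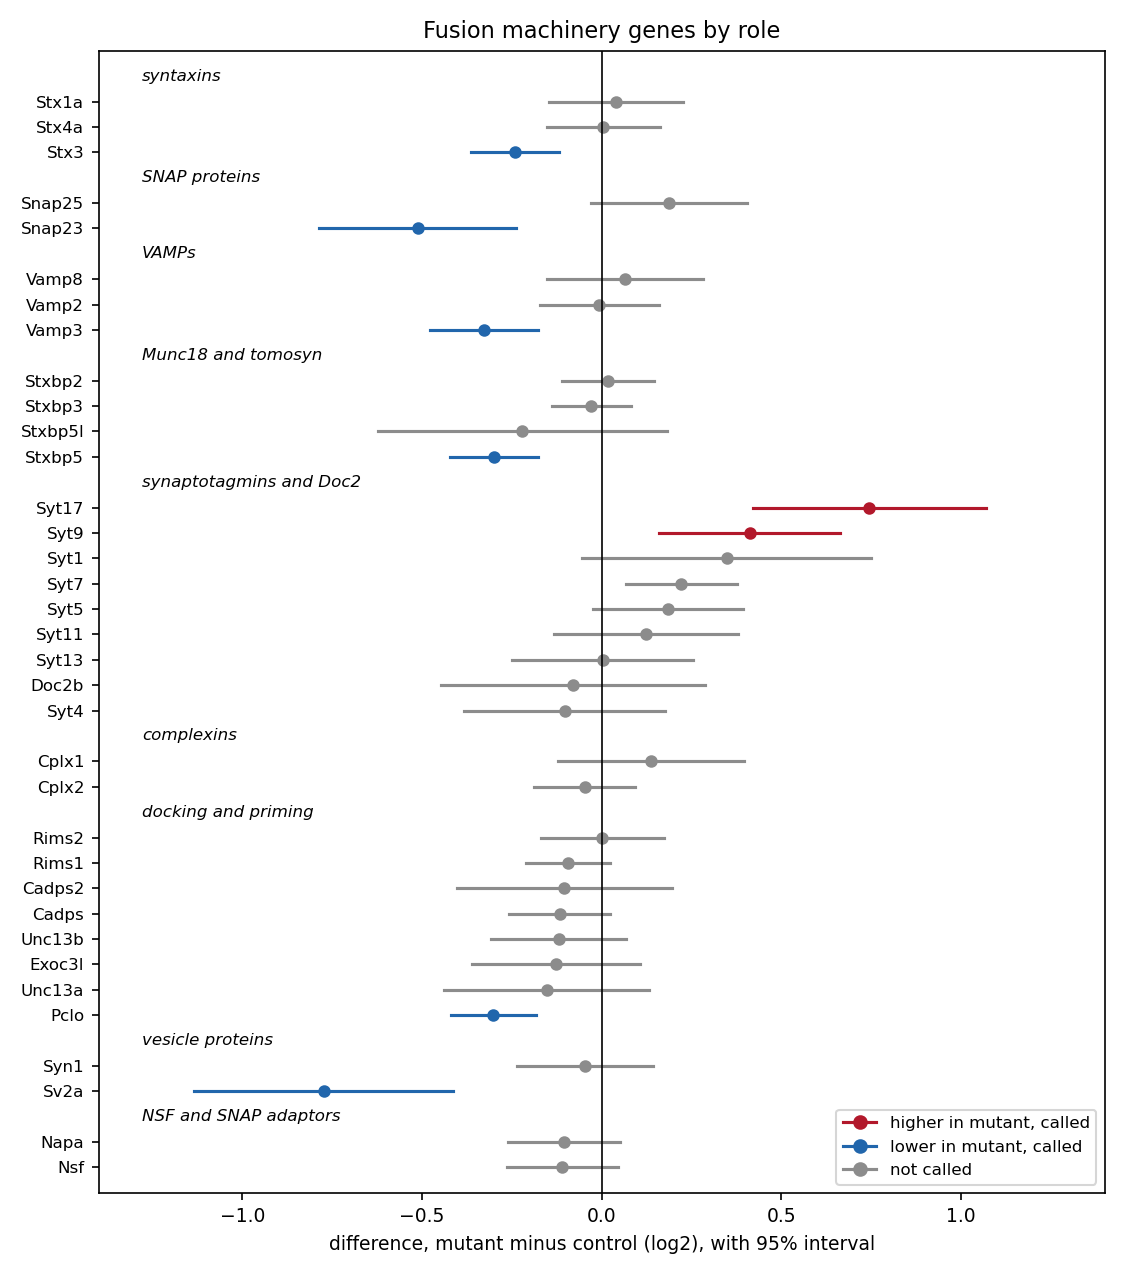
Difference between mutant and control islets (log2, horizontal axis) for the 35 fusion genes, grouped by role. Points are estimates from 8 arrays per group, lines are 95% intervals, and the called genes are coloured, 6 lower and 2 higher. Sv2a at −0.77 and Syt17 at 0.74 lie at the ends.

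The first group is the plasma-membrane SNAREs. Stx3, a syntaxin that pairs with SNAP-23 in several epithelia, read 10.18, 10.23 and 10.35 (lowest, median and highest) in mutants and 10.33, 10.51 and 10.70 in controls. Of the 8 mutant arrays, 6 lay below the lowest control. The difference was −0.24 ± 0.06 (SE, 1.18-fold, adjusted p = 0.013) and was negative in 8 of 8 pairs. Its 4 probe sets were all lower, and 2 of them were called when every probe set was tested.

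Stx1a, the syntaxin of neuronal and beta-cell exocytosis, read 8.13, 8.38 and 8.75 in mutants and 8.14, 8.39 and 8.60 in controls. The groups covered nearly the same range, and the difference was 0.04 ± 0.09 (95% interval −0.15 to 0.23, adjusted p = 0.856). Its dimmer probe set differed by −0.13 (adjusted p = 0.451 over probe sets). The name of the probe set used ends in x_at, a mark of probes that may hybridise to other transcripts, as do those used for Vamp3 and Stxbp2. Stx4a, a syntaxin of the plasma membrane of many cells, differed by 0.00 ± 0.07 (95% interval −0.15 to 0.16).

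Snap23, the widely expressed relative of SNAP-25, read 7.94, 8.34 and 8.85 in mutants and 8.60, 8.82 and 9.10 in controls. Mutant replicates 4 and 5 reached the control range, and the other 6 lay below it. The difference was −0.51 ± 0.13 (SE, 1.43-fold, adjusted p = 0.0188), in 8 of 8 pairs. All 3 of its probe sets were lower, by 0.51, 0.38 and 0.45 in order of brightness, and the brightest and the dimmest were called over probe sets.

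Snap25, the SNAP of neurons and endocrine cells and a target of botulinum toxins, did not fall. It read 11.40, 11.97 and 12.18 in mutants and 11.40, 11.70 and 11.95 in controls, and 4 mutant arrays lay above the highest control. The difference was 0.19 ± 0.10 (SE, adjusted p = 0.316), higher in 7 of 8 pairs, and the replicate block brought a call (adjusted p = 0.0388). Adding the acinar mean to the model left 0.02 (adjusted p = 0.928).

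Of the 3 vesicle SNAREs, 1 fell, while 4.66% of all genes were called lower. Vamp3, also known as cellubrevin, serves recycling and constitutive vesicles in most cells. It read 10.36, 10.50 and 10.82 in mutants and 10.69, 10.89 and 11.02 in controls, with 6 mutant arrays below the lowest control. The difference was −0.33 ± 0.07 (SE, 1.25-fold, adjusted p = 0.00695), in 8 of 8 pairs. All 5 of its probe sets were lower and 3 were called over probe sets, among them the next brightest, whose name has no such mark (−0.27, adjusted p = 0.0198).

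Vamp2, the main VAMP of insulin granules and synaptic vesicles, read 9.72, 10.04 and 10.26 in mutants and 9.88, 9.99 and 10.21 in controls. The difference was −0.01 ± 0.08 (95% interval −0.17 to 0.16). Its other probe set was called lower (5.58 ± 0.17 in mutants and 6.05 ± 0.25 in controls, SD, difference −0.47, adjusted p = 0.00946 over probe sets). That set was lower in 8 of 8 pairs and averaged 5.82, below the lowest array median of 6.29, so the probe sets of Vamp2 disagree. Vamp8, a VAMP of late endosomes and of zymogen granules, differed by 0.06 ± 0.10 (adjusted p = 0.788).

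**Figure D2:**
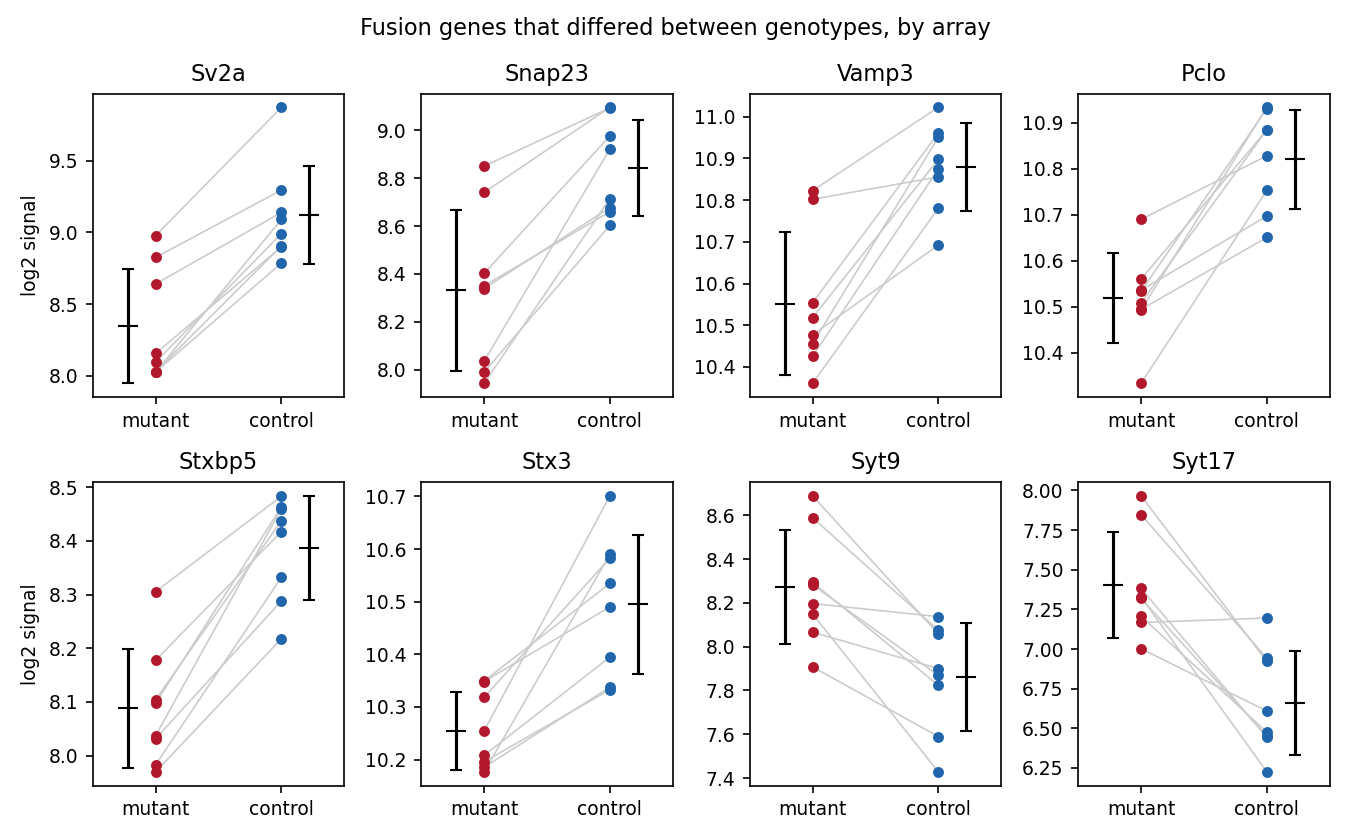
Log2 signal (vertical axes, each with its own range) on every array for the 8 called genes, mutant left and control right. Points are arrays, grey lines join arrays of the same replicate number, and black marks are means with SD (n = 8). The first 6 are lower in the mutant in 8 of 8 pairs, Syt9 is higher in 8 of 8 and Syt17 in 7 of 8.

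The acinar markers were lower in the same 8 pairs as Stx3, Snap23 and Vamp3, and their part in these differences was not tested. With the acinar mean in the model the differences of the 3 genes were −0.27, −0.56 and −0.36 (adjusted p = 0.014, 0.0261 and 0.00929). With the acinar mean and the replicate block they were −0.28, −0.45 and −0.34, and none of the 3 was called (adjusted p = 0.138, 0.145 and 0.124). Their SE were 0.094, 0.151 and 0.107 in that fit, against 0.047, 0.076 and 0.053 with the block alone. The calls were thus lost with wider errors at differences of similar size.

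Of the Munc18 and tomosyn genes, Stxbp5 changed. It encodes tomosyn, a SNARE-binding protein that restrains exocytosis. It read 7.97, 8.07 and 8.31 in mutants and 8.22, 8.43 and 8.48 in controls, and 7 of 8 mutant arrays lay below the lowest control. The difference was −0.30 ± 0.06 (SE, 1.23-fold, adjusted p = 0.0032), in 8 of 8 pairs. Its other 2 probe sets were lower by 0.12 and 0.11 and were not called, and the mean of the 3 was not called (−0.18, adjusted p = 0.132).

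Stxbp5l, tomosyn-2, had the widest spread within groups of the 35 genes. It ran from 7.02 to 8.09 in mutants and from 7.10 to 8.26 in controls. The difference was −0.22 ± 0.19 (SE, adjusted p = 0.572), negative in 7 of 8 pairs. Stxbp2 and Stxbp3, the Munc18 forms that serve syntaxins 3 and 4, differed by 0.02 ± 0.06 and −0.03 ± 0.05. Their 95% intervals, −0.11 to 0.15 and −0.14 to 0.08, leave room for little change in either direction.

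Of the 8 synaptotagmins and Doc2b, proteins with C2 domains of which many but not all bind calcium, 2 of 9 rose, 0 fell and 7 were not called. Their differences ran from −0.10 to 0.74. For comparison, 4.1% of all genes were called higher. Syt17, a synaptotagmin relative whose domains are not known to bind calcium, read 7.002, 7.32 and 7.97 in mutants and 6.23, 6.54 and 7.20 in controls. Of the mutant arrays 6 lay above the highest control, and the difference was 0.74 ± 0.15 (SE, 1.68-fold, adjusted p = 0.0047). It was higher in 7 of 8 pairs, the exception being pair 7, where the values differed by −0.03. Its other probe set was dim and not called (0.30, adjusted p = 0.183 over probe sets).

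Syt9, a calcium sensor of dense-core granules, read 7.91, 8.24 and 8.69 in mutants and 7.43, 7.88 and 8.14 in controls. The difference was 0.41 ± 0.12 (SE, 1.33-fold, adjusted p = 0.039), in 8 of 8 pairs. The call is close to the threshold. It was lost in 10 of the 16 fits that left out 1 array (adjusted p up to 0.0767) and kept in 6. The arrays whose absence ended it were replicates 1, 4, 5, 6 and 7 of the mutants and 1, 2, 3, 4 and 8 of the controls. With the acinar mean in the model the difference was 0.30 (adjusted p = 0.154). The sequence before the Syt9 start is shown because this is 1 of the 2 genes that rose; capitals mark the GC box GGGCGG on either strand, in RefSeq sequence of GRCm38.p6 at chr7:107370540-107370839, plus strand.
Syt9: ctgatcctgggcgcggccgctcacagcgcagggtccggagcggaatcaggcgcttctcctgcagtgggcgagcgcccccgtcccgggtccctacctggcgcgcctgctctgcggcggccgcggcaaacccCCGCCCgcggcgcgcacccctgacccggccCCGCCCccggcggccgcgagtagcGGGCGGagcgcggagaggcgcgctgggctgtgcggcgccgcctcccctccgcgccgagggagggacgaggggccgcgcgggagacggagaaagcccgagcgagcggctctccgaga

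Syt7, the high-affinity sensor of insulin and glucagon granules, read 11.73, 11.97 and 12.14 in mutants and 11.54, 11.74 and 11.97 in controls. The difference was 0.22 ± 0.07 (SE, adjusted p = 0.0715), higher in 7 of 8 pairs, and pairing by replicate number brought a call (adjusted p = 0.0101). Its 3 brighter probe sets were higher by 0.17 to 0.27 and the dimmest was lower by 0.06. With the acinar mean in the model its difference was 0.12 (adjusted p = 0.311).

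Syt1, the fast sensor of synaptic vesicles, ranged from 6.77 to 8.54 in mutants and from 6.88 to 7.80 in controls (0.35 ± 0.19, adjusted p = 0.318). Syt5, a granule synaptotagmin, ran from 7.36 to 8.22 in mutants and from 7.55 to 7.82 in controls. Although 6 of 8 mutant arrays lay above the highest control, mutant replicate 1 lay below the lowest, and the difference was 0.18 ± 0.10 (adjusted p = 0.309). Without that array Syt5 was called (0.26, adjusted p = 0.0349). Syt11, a synaptotagmin that does not bind calcium, and Syt13, one of endocrine cells, differed by 0.12 ± 0.12 and 0.00 ± 0.12, and Syt4, one of beta-cell maturation, by −0.10 ± 0.13. Doc2b, a soluble calcium sensor with C2 domains, was below the lowest array median in both groups on average (5.29 ± 0.47 in mutants and 5.36 ± 0.26 in controls, SD, n = 8).

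Mutant replicate 5 gave the highest of the 16 values for 10 of the 35 genes, namely Stx1a, Snap25, Syt1, Syt5, Syt9, Syt11, Syt17, Cplx1, Doc2b and Syn1. That array also had the highest mean of 10 nerve and glia markers, 7.73, while the other mutant arrays ran from 6.39 to 7.12 and the controls from 6.47 to 7.12. Of those markers, 4 averaged below the lowest array median. The part of nerve cells in these values was not tested. Without mutant replicate 5 the differences of Syt17, Syt9 and Syt1 were 0.66, 0.35 and 0.21. At the other end, mutant replicate 1 gave the lowest of the 16 values for 13 of the 35 genes, among them Stx3, Stxbp5 and Pclo. It also had the highest immune-marker mean (9.57) and the lowest beta-cell mean (11.45) of the 16 arrays. Stx3, Stxbp5 and Pclo stayed called in all 16 fits that left out 1 array.

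Neither complexin was called. Cplx1 and Cplx2, which bind the assembled SNARE bundle, differed by 0.14 ± 0.12 and −0.05 ± 0.07 (adjusted p = 0.59 and 0.754). Nsf and Napa, which encode the ATPase and the adaptor that take SNARE bundles apart, were lower by 0.11 each without a call (adjusted p = 0.439 and 0.466). Nsf was called with the acinar mean in the model (−0.22, adjusted p = 0.0422).

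Of the 8 docking and priming genes, 1 fell, while 4.66% of all genes were called lower. Pclo encodes Piccolo, a large scaffold of the active zone that also takes part in cAMP-stimulated insulin release. It read 10.33, 10.52 and 10.69 in mutants and 10.65, 10.86 and 10.93 in controls, and 7 of 8 mutant arrays lay below the lowest control. The difference was −0.30 ± 0.06 (SE, 1.23-fold, adjusted p = 0.0022), in 8 of 8 pairs. Its dimmer probe sets were lower by 0.45 and 0.49 and were not called. The stretch of its promoter with the Neurod1-type E-box CAGATG in capitals, matched on the opposite strand, is shown because Neurod1 is named as a partner of Insm1 in the study's title (RefSeq, GRCm38.p6, chr5:14514774-14514829, plus strand).
Pclo: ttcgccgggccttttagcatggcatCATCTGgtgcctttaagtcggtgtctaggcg

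Rims1 and Rims2, scaffolds that bind Rab3 and Munc13, differed by −0.09 ± 0.06 and 0.00 ± 0.08. Rims1, at 5.29 ± 0.08 in mutants and 5.39 ± 0.11 in controls (SD, n = 8), lay below the array medians. The Munc13 genes Unc13a and Unc13b differed by −0.15 ± 0.14 and −0.12 ± 0.09, and the CAPS genes Cadps and Cadps2, whose proteins prime dense-core granules, by −0.12 ± 0.07 and −0.10 ± 0.14. Unc13a was lower in 8 of 8 pairs and missed the threshold also with the replicate block (adjusted p = 0.0685). Exoc3l, a relative of the exocyst subunit Sec6, was dim (4.73 ± 0.15 in mutants and 4.85 ± 0.30 in controls, SD, n = 8).

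Sv2a showed the largest difference of the 35 genes. It encodes a transporter-like glycoprotein of synaptic vesicles and dense-core granules and is the binding site of the antiepileptic levetiracetam. It read 8.03, 8.13 and 8.98 in mutants and 8.79, 9.04 and 9.87 in controls. Mutant replicates 6 and 8 reached the control range and the other 6 lay below it. The difference was −0.77 ± 0.17 (SE, 1.71-fold, adjusted p = 0.00763), in 8 of 8 pairs, and with the acinar mean in the model it was −1.05 (adjusted p = 0.000336). The promoter is shown because of this rank, with the E-box CANNTG and the GC box in capitals (RefSeq, GRCm38.p6, chr3:96180977-96181276, plus strand).
Sv2a: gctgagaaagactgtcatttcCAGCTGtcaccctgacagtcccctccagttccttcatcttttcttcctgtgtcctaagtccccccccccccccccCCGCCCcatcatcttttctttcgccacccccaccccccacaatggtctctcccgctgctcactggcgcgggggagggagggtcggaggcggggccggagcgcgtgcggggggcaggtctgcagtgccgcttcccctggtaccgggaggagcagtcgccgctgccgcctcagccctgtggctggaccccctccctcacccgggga

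Its paralogue Sv2b, a vesicle protein outside the 35, rose. It read 6.83, 7.52 and 7.93 in mutants and 6.24, 6.77 and 7.01 in controls (0.75 ± 0.17, 1.68-fold, adjusted p = 0.00752, higher in 7 of 8 pairs). Syn1, encoding synapsin I, which tethers vesicles to actin, differed by −0.05 ± 0.09 (95% interval −0.23 to 0.14).

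Promoter sequence, 250 bases before to 50 after the start, was found for 24 of the 35 genes, 6 of them called. The GC box GGGCGG was in 16 of the 24 (66.7%), against 38.2% of 27025 genes with a promoter in the RefSeq table. The E-box CANNTG was in 17 (70.8%, against 75%), and CAGATG, which is one form of that E-box, in Stxbp2, Cadps and Pclo (12.5%, against 19.2%). CAGGGGGC, the core of the Insm1 consensus, was in Cadps (4.17%, against 3.29%), and the FoxA core TGTTTAC in 0 (0%, against 4.05%). The cAMP element TGACGTCA was in Stxbp3, Napa and Syn1 (12.5%, against 2.03%), and TATAAA in Stx3 (4.17%, against 15.7%). Each motif was searched on both strands, and a match describes letters, not binding.

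The left and right parts of RE1, the element bound by the neuronal gene repressor Rest, were in Unc13a (TTCAGCACC and GGACAGCGC) and Syn1 (TTCAGCACC). These letters were in 0.433% and 0.477% of all genes with a promoter. The 2 stretches are shown since neither gene was called, with these parts in capitals, on the minus strand at chr8:71671708-71671777 and chrX:20921117-20921168 (RefSeq, GRCm38.p6). In Unc13a both parts read on the opposite strand. The Stx3 stretch with TATAAA, read on the opposite strand, is the minus strand at chr19:11819458-11819513.
Unc13a: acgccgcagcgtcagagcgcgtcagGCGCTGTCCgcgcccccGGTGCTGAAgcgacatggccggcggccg
Syn1: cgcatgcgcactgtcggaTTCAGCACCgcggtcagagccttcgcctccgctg
Stx3: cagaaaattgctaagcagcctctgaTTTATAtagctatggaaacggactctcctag

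Of the 27 genes without a call, 15 had a 95% interval within 1.25-fold in either direction. These were Stx1a, Stx4a, Vamp2, Vamp8, Stxbp2, Stxbp3, Syt13, Cplx2, Rims1, Rims2, Unc13b, Cadps, Syn1, Nsf and Napa. For the others, among them Syt1, Stxbp5l, Doc2b and Unc13a, the arrays leave larger differences possible. Each interval describes only the brightest probe set. Among the 15, Rims1 averaged below the lowest array median, and the dimmer probe set of Vamp2 was called lower (−0.47, adjusted p = 0.00946 over probe sets). The lists hold 95 more measured genes of vesicle docking and fusion, of which 11 were called, 7 lower and 4 higher (11.6%, near the 8.76% of all genes), with a median difference of −0.05. With the replicate block 25 of the 95 were called (26.3%, against 17.6% of all genes), 18 lower and 7 higher.

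In the docking and priming list 3 of 24 were called, all lower (12.5%, against 8.76% of all genes called in either direction). Erc2, the active-zone scaffold CAST, read 7.03, 7.46 and 7.89 in mutants and 7.94, 8.47 and 8.99 in controls, with no overlap (−1.03 ± 0.16, 2.04-fold, adjusted p = 0.00061). Rims3, a short RIM form, read 7.84, 8.51 and 9.42 in mutants and 9.27, 9.56 and 10.31 in controls (−1.02 ± 0.22, 2.03-fold, adjusted p = 0.00695). Baiap3, a Munc13 relative that acts in dense-core vesicle trafficking, was lower by 0.66 ± 0.15 (SE, adjusted p = 0.00856). All 3 were lower in 8 of 8 pairs. Bassoon (Bsn), the relative of Piccolo, differed by 0.08 (adjusted p = 0.48), and the other 20 were not called in this fit. With the replicate block 5 of the 24 were called, all lower (20.8%, against 17.6% of all genes), the added genes being the exocyst subunit Exoc5 (−0.24, adjusted p = 0.00631) and the Erc2 relative Erc1 (−0.19, adjusted p = 0.0418).

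In the list of other SNAREs and the similarly named Snap91, 3 of 28 were called (10.7%, against 8.76% of all genes). Snap91 was called neither in this fit nor with the replicate block. Use1, a SNARE of the endoplasmic reticulum, rose 1.37-fold with no overlap between groups (adjusted p = 0.00104), Vamp4, a SNARE of the trans-Golgi network, fell 1.25-fold (adjusted p = 0.00401), and Stx19 rose 1.16-fold at a signal far below the array medians (adjusted p = 0.0246). With the replicate block 9 of the 28 were called (32.1%, against 17.6% of all genes). The added genes were Vamp7, Vti1b, Gosr2 and Stx12, lower by 0.31, 0.32, 0.28 and 0.18 and each in 8 of 8 pairs, and Stx16 and Stx11, higher by 0.27 and 0.50 in 7 and 8 of 8 pairs. Stx11 averaged below the lowest array median (4.84 in mutants and 4.34 in controls). Of 26 other Munc18-type proteins, sensors and regulators, 2 were called (7.69%, against 8.76% of all genes). Stxbp6, which encodes the SNARE-binding protein amisyn, rose 1.30-fold and Syt3 fell 1.25-fold (adjusted p = 0.0136 and 0.00895). Over all arrays Syt3 averaged below the lowest array median (6.07 in mutants and 6.39 in controls). Besides Sv2b, Synpr and Scamp2 were called among 17 vesicle membrane genes, 3 in all (17.6%, against 8.76% of all genes). Synpr encodes synaptoporin, and fell by 0.91 ± 0.24 on the log2 scale (SE, adjusted p = 0.0242), and Scamp2 fell by 0.22 ± 0.06 (SE, adjusted p = 0.0196).

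**Figure D3:**
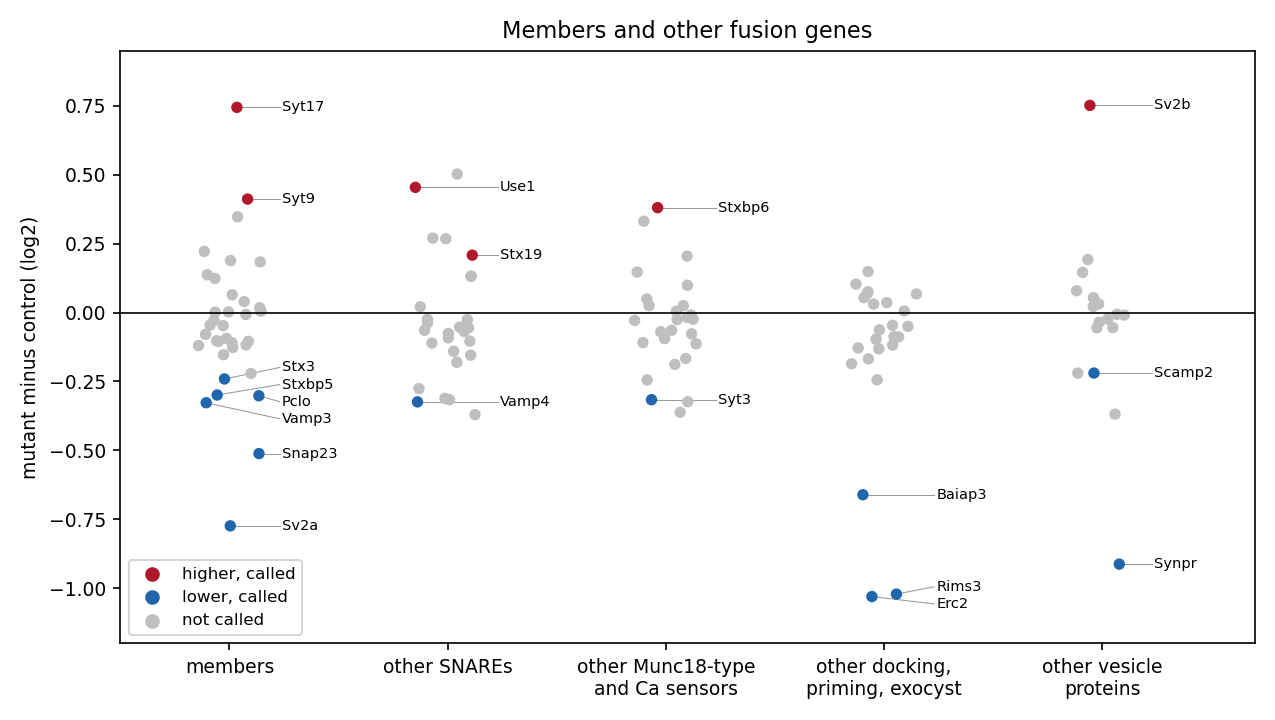
Difference between mutant and control islets (log2, vertical axis) for the 35 members and for 95 other fusion genes in 4 lists; each point is a gene, and the called genes are coloured and named. Erc2, Rims3 and Synpr, at −1.03, −1.02 and −0.91, lie below every member, and Sv2b and Syt17, at 0.75 and 0.74, lie highest.

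Most calls were lost when pairs 1 to 3 were left out. No other set of pairs was left out, so the part of these preparations cannot be told from that of the smaller number of arrays. The mutant arrays of pairs 1 to 3 had the highest immune-marker means of the 8 and also the highest acinar means. This fit therefore cannot separate the 2 signals. Without pairs 1 to 3, 1 of 35 genes was called, Stxbp5 (−0.31, adjusted p = 0.0195), against 4.55% of all genes. The differences themselves kept their direction and much of their size in the 5 remaining pairs. Sv2a differed by −0.73, Snap23 by −0.45, Vamp3 by −0.29, Pclo by −0.24, Stx3 by −0.25, Syt17 by 0.64 and Syt9 by 0.36, with adjusted p from 0.0606 to 0.162. Among the 95 other fusion genes 2 were called higher and 6 lower without pairs 1 to 3. Erc2, Rims3, Baiap3 and Use1 kept their calls (adjusted p = 0.00266, 0.0479, 0.0122 and 0.0367). Stx16, Gosr2, Syt14 and Exoc5, not called in the main fit, were called there (adjusted p = 0.0433, 0.0408, 0.0409 and 0.0375).

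With both the acinar mean and the replicate block in the model, 2 of 35 were called, against 3.52% of all genes. They were Sv2a (−0.92, adjusted p = 0.00726) and Pclo (−0.41, adjusted p = 0.0357). Stxbp5 differed by −0.26 in that fit (adjusted p = 0.149), and Syt17 and Syt9 by 0.63 and 0.30 (adjusted p = 0.176 and 0.308). The SE of Stxbp5, Syt17 and Syt9 were 0.087, 0.230 and 0.143 there, against 0.044, 0.116 and 0.074 with the block alone. Snap25 and Syt7 were near 0, at −0.03 and 0.06.

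**Figure D4:**
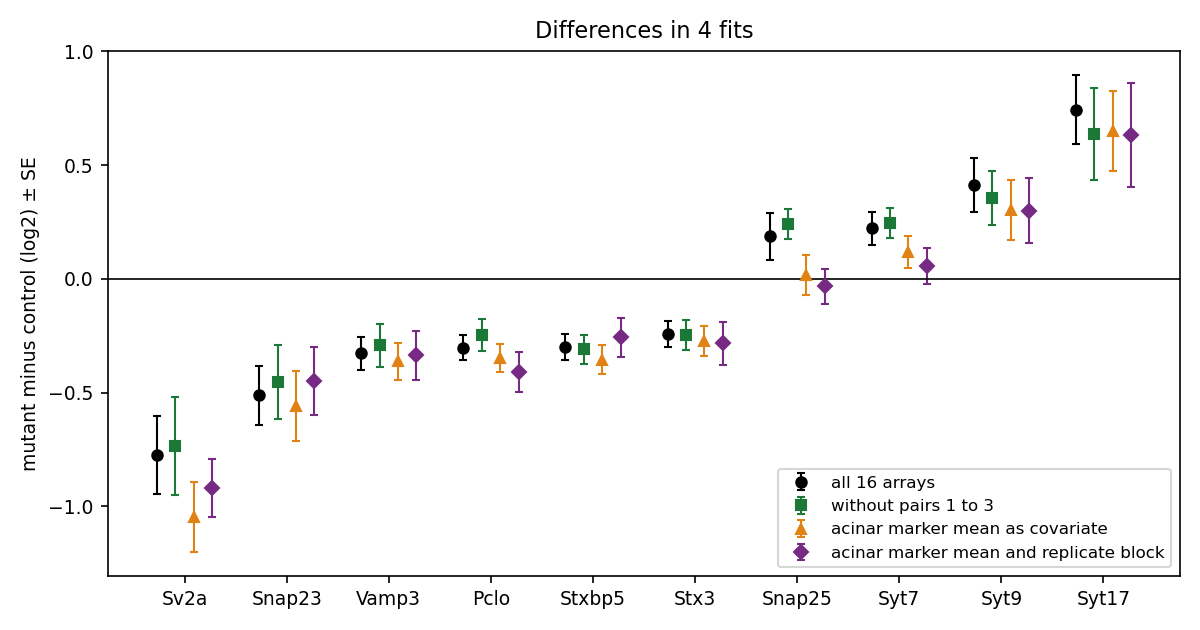
Difference between mutant and control islets (log2, vertical axis) with SE for the 10 genes called in the fit without or with the replicate block, in 4 fits told apart by marker and colour. The 6 genes that fell stay below 0 and Syt9 and Syt17 above it, while Snap25 and Syt7 approach 0 with the acinar mean in the model.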

How the data were processed

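Per the labels' protocols, islet RNA was isolated with Trizol and 150 ng of it was converted to biotinylated cRNA for Affymetrix Mouse430_2 arrays. The deposited values are log2 signals, 1 per probe set. The authors' background correction, summarisation and normalisation are not given in the sources used here. Array medians ran from 6.29 to 6.35, and nothing was rescaled. Of 45101 probe sets, 34945 named 1 gene in the platform annotation, 932 several and 9160 none, and 64 were controls. The symbols of 34741 were updated through RefSeq. The brightest probe set stood for each gene, without detection calls, so dim differences are compressed. No columns were identical.

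All genes were fitted with limma 3.58.1 in R 4.3.3 (lmFit, eBayes with a variance trend, genotype as the only term), and tests were two-sided. Steps were tested on simulated data. The series text speaks of litter-matched mice without giving the pairs. Deviations from group means correlated between same-numbered arrays in 8 of 8 pairs (0.237 to 0.735), so the numbers were taken as pairs. The members, gene lists, motifs and tests were chosen with earlier results of these data known. Named with full values are the members called with or without the replicate block, and Stx1a, Snap25 and Vamp2; of other fusion genes, those called, up to 6 a list. Alternatives were other scaling, filters, probe set rules, weights, marker means as covariates, the replicate block, and arrays or pairs left out.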

Additional observations from a re-analysis of the deposited data

Results flagged for a closer look

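Among 92 groups of 8 arrays (35 members and the 11 other fusion genes that were called, each in mutants and in controls), 9 held an array set apart from its group, a gap to the nearest array past Dixon's 95% limit for its share of the group's range. About 1 group in 20 would do so by chance. Mutant replicate 5 was the array in 3 of them: it was lowest for Vamp8 (10.13, next 10.54) and highest for Syt11 (9.27, next 8.64) and Doc2b (6.35, next 5.33). Mutant replicate 6 was highest for Cplx2 (11.88, next 11.61) and mutant replicate 7 for Use1 (10.73, next 10.56). Among controls, replicate 5 was lowest for Cplx2 (11.38, next 11.57), replicate 3 lowest for Syt5 (7.55, next 7.69), replicate 1 lowest for Syt13 (12.03, next 12.49), and replicate 8 highest for Sv2a (9.87, next 9.29). Without control replicate 8 the difference of Sv2a was −0.67 (adjusted p = 0.0115).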

How the results depend on the processing

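The main fit called 8 members, 2 higher and 6 lower, and 11 of the other fusion genes. Leaving out each array in turn called 7 to 9 members, 1 to 3 higher and 6 lower, and 10 to 14 of the other genes, with a median difference of members from −0.09 to −0.02. With the replicate block 10 members (4 higher) and 25 other genes were called, and no call of a member was lost. With the acinar mean as a covariate 1 member was called higher and 19 other genes were called. With the acinar mean and the replicate block the counts were 2 members, 0 higher and 2 lower, and 3 other genes, with a median difference of members of −0.16. The immune mean as a covariate gave 4 higher, and median centring 1 higher. No share of all genes is given for the fits with the acinar mean alone, the immune mean or median centring. Their counts therefore cannot be set against a background. Without pairs 1 to 3 the counts were 1 member, 0 higher and 1 lower, and among the other genes 2 higher and 6 lower. The cause of these shifts was not tested, and the last fit also had fewer arrays. No called member changed sign in any of the 28 alternatives. Of the 28, Stx3, Snap23, Vamp3, Stxbp5 and Syt17 were called in 26 each, Pclo and Sv2a in 27, and Syt9 in 14. Stxbp5 lost its call with the mean of its probe sets, and Syt9 with median centring (adjusted p = 0.0519) and with the acinar mean. Quantile normalisation, array weights or the immune mean added Syt7 (adjusted p = 0.048, 0.0413 and 0.00539), and the immune mean added Snap25 (adjusted p = 0.0261). Signals below the array medians, as for Doc2b, Rims1 and Exoc3l, limit what can be seen for those genes.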
